A study of Homo sapiens with 4 samples.

Results

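The cells compared here are the strongest and the weakest responders to estrogen within 1 culture of Ishikawa cells. Ishikawa is an established line from a human endometrial adenocarcinoma, a cancer of the gland-like lining of the uterus. They had been treated for 8 h with 10 nM of 17β-estradiol (E2), the main estrogen of the ovary. Each cell received a score, the sum of its molecules of G0S2, RGS10, TGFA, DHRS3 and FAM43A per 10000 molecules counted in the cell. Those 5 genes are raised by E2 in this line, FAM43A only slightly at 8 h, and had been picked from these same libraries. The 367 cells with the top 25% of scores are called strong and the 367 with the bottom 25% weak. Together they are 734 of 1465 cells kept at 8 h, of 4613 kept Ishikawa cells, and of 33173 cell barcodes in the Ishikawa and T-47D matrices. A barcode was kept with 8500 to 35000 unique molecular identifiers (UMIs, each marking a captured transcript), 2700 to 6000 genes and under 7% mitochondrial UMIs.

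All Ishikawa cultures of the series, the vehicle culture included, were first held in hormone-depleted medium. The vehicle (DMSO) culture is called 0 h and the others received E2 for 2, 4 or 8 h. Cells of each culture carried their own MULTI-seq tag, a short DNA sequence anchored in the membrane, and the 4 cultures were pooled in 1 droplet library. The series also holds T-47D breast carcinoma cells, which are not analysed here. The same split was repeated in the 776 kept cells at 0 h as an untreated reference (194 cells at the top and 319 at the bottom), and in the 1480 cells at 2 h (370 and 370) and the 892 cells at 4 h (223 and 223). Each time point was 1 culture and cells are not replicates, so no test is given. The 95% intervals of levels and ratios cover counting error only. Those of shares treat the cells of 1 culture as independent, and those of medians run over genes, which are not replicates.

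The tags are shown because they alone tell an 8 h cell from a 0 h cell of the mixed library. All 8 bases are given in capitals.
8 h: AGGAGTCC
0 h: TTCTGCCT

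E2 enters the cell and binds estrogen receptor alpha, the product of ESR1, which then binds DNA at estrogen response elements and recruits coregulators to nearby genes. In the endometrium, estrogen drives the growth of the glands, and receptor activity induces the progesterone receptor PGR. The receptor shares its coregulators and many enhancers with other pathways, among them growth factor signalling and the Hippo pathway, whose effectors YAP and TAZ act through TEAD proteins on genes such as CTGF, CYR61 and ANKRD1.

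The score spread widely at 8 h. Its lowest value was 0, the 25th percentile 0.645, the median 1.46, the 75th percentile 2.81 and the highest 40.7 UMIs per 10000. At 0 h the median was 0.447 and the 75th percentile 0.918. Of the 8 h cells, 65.2% lay above that 0 h 75th percentile (exact binomial interval 62.7% to 67.6%) and 183 cells had no UMI of the 5 genes. A strong cell held 12.7 such UMIs on average and at least 3, and a weak cell 0.534 on average and at most 2. The last cell inside the strong group scored 2.809 and the first outside it 2.803. The last cell inside the weak group scored 0.6452 and the first outside it 0.6467. There were 87 cells within 10% of the upper limit and 75 within 10% of the lower one, so strong and weak are ranges of a continuous score. Cut at the 25th, 50th and 75th percentile, the score gives 4 groups of cells, Q1 (weak), Q2, Q3 and Q4 (strong). At 0 h a cell held only 1.21 score UMIs on average, and all 319 cells of its bottom group held none.

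**Figure D1:**
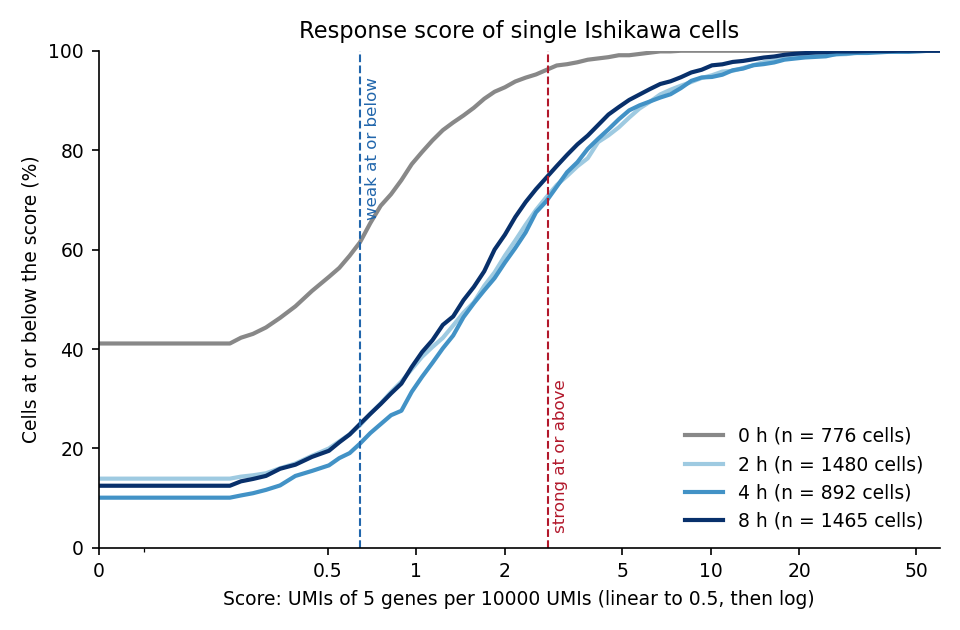
Cumulative share of kept Ishikawa cells (y axis, %) at or below each response score (x axis, UMIs of 5 genes per 10000 UMIs, linear to 0.5 and then log), with 1 line per time point and dashed lines at the 8 h limits of 0.645 and 2.81. The 0 h line lies to the left of the other 3, which run close together.

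G0S2, which encodes an inhibitor of the fat-splitting enzyme ATGL, varied most between cells. With every cell thinned to 11673 UMIs, the variance of G0S2 was 10.1 times its mean over the 8 h cells, where counting error alone gives 1. The values were 1.79 for RGS10, which encodes a regulator of G protein signalling, 1.40 for TGFA, a ligand of the EGF receptor, 1.55 for DHRS3, which reduces retinal to retinol, and 1.51 for FAM43A. In the thinned cells a G0S2 UMI was found in 29.0% at 8 h and 13.5% at 0 h, and 1 cell held 51. FAM43A, which rose least of the 5, was found in 13.2% at 8 h and 10.5% at 0 h.

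The weak and strong cells had like depth. The median was 20562 UMIs and 4441 genes in weak and 20298 UMIs and 4523 genes in strong cells, with mitochondrial shares of 3.88% and 4.08%. They differed in a reporter. GFP, a feature of the Ishikawa matrix whose construct the labels do not describe, made up 5.73%, 4.82%, 3.56% and 2.27% of all UMIs from Q1 to Q4. The median cell differed less, with 0.623% in weak and 0.490% in strong cells, so the difference in the pools came mainly from cells with very high GFP. GFP and tdTomato were left out of all totals. Whether GFP has a part in the differences that follow was not tested. For reported genes that were named by the rules given under processing, values from cells under 1% GFP are given where they change the call. The 2 matrices shared 80 barcode sequences.

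The cells expressed the genes of their labelled origin. In strong cells EPCAM, KRT8, KRT18, KRT19 and CDH1, which mark epithelium, summed to 4222 counts per 1000000 UMIs (CPM), and in weak cells to 4102 CPM. Of 5 endometrial gland markers, PAX8, EMX2, SOX17 and HOXB5 were detected and FOXA2 was at 0. Immune markers summed to 0.669 CPM in strong and 0.137 CPM in weak cells, endothelial markers to 0.803 and 1.37 CPM. Of 5 breast luminal markers, GATA3, ANKRD30A and PIP were at 0 and AZGP1 was under 1 CPM, while TRPS1 was present at 19.3 CPM in strong and 18.1 CPM in weak cells. The fibroblast genes DCN and LUM were at 0 and 1 UMI over all 8 h cells, while COL1A1 was present at 17.3 CPM in strong and 23.7 CPM in weak cells.

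Each score gene was then read in cells split by the other 4, so that it had no part in the choice of cells. All 5 were higher in the top 25% of cells at 8 h. G0S2 was at 147 CPM against 45.4 CPM, a ratio of 3.23 (interval 2.85 to 3.66). RGS10 was at 88.8 against 41.8 CPM (2.13, 1.85 to 2.45) and FAM43A at 17.7 against 9.52 CPM (1.86, 1.38 to 2.52). The ratio was 1.49 for TGFA (1.28 to 1.74) and 1.30 for DHRS3 (1.03 to 1.63). Cells high in one of these genes were thus, on average, high in the others.

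In untreated cells the same reading gave 1.76 for G0S2 (1.31 to 2.35) and 1.33 for RGS10 (1.01 to 1.73). The intervals of TGFA, DHRS3 and FAM43A at 0 h included 1, and DHRS3 rested on 8 and 12 UMIs. The median log2 ratio of the 5 genes was 0.27 untreated, and after E2 it was 0.84 (2 h), 0.55 (4 h) and 0.83 (8 h). The order of 8 h above 0 h did not hold in every setting. With all cells thinned to 1 depth the median was 0.36 at 8 h and 0.40 at 0 h, and with the top and bottom 10% of cells it was 0.49 and 0.78. With every called cell it was 0.39 and 0.32.

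**Figure D2:**
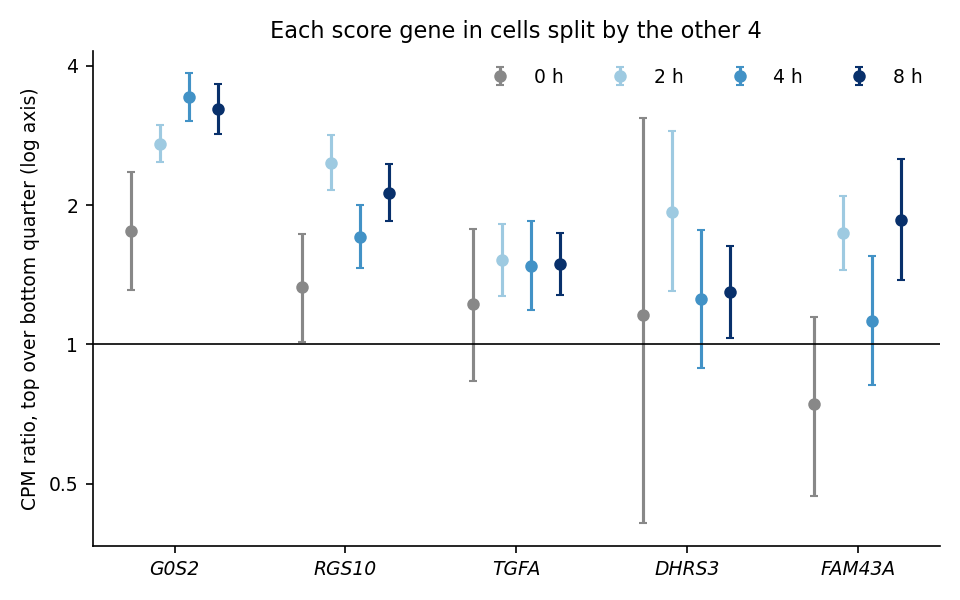
CPM ratio of each score gene between the top and bottom 25% of cells split by the other 4 genes (log y axis), by time point. Points are ratios and bars 95% counting intervals. All 5 points at 8 h lie above 1, from 1.30 for DHRS3 to 3.23 for G0S2.

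Outside the score, 8082 genes had at least 10 CPM on average over all kept 0 h and 8 h cells and were compared. Ratios are given as log2 of strong over weak, with 1 CPM added to both, which understates the change of low genes. A gene is counted as different from 1.5-fold (0.58 on this scale). At 8 h, 126 genes were higher in strong cells (1.56% of those compared) and 312 were lower (3.86%). In the 0 h split, 83 were higher (1.03%) and 96 lower (1.19%). The separate cells at 2 h gave 127 higher (1.57%) and 295 lower (3.65%), and those at 4 h gave 183 higher (2.26%) and 337 lower (4.17%).

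Most genes that differed at 8 h leaned the same way in the separate cells treated for 2 h and 4 h. Few were past 1.5-fold in the same direction in untreated cells, though more than the share over all genes. Of the 126 higher genes, 97.6% were above 0 at 2 h, 92.9% at 4 h and 51.6% at 0 h, where 52.9% of all genes compared were above 0. Of the 312 lower genes, 94.9% were below 0 at 2 h, 95.8% at 4 h and 37.8% at 0 h, where 47.1% of all genes were. Past 1.5-fold, 70 higher genes were shared with the 4 h split (55.6% of the 8 h list, 38.3% of the 4 h list), and 6 with the 0 h split (4.76% and 7.23%). Of all genes compared, 1.56% were on the 8 h list, 2.26% on the 4 h list and 1.03% on the 0 h list. For the lower genes 166 were shared with 4 h (53.2% and 49.3%) and 12 with 0 h (3.85% and 12.5%). There the lists held 3.86% (8 h), 4.17% (4 h) and 1.19% (0 h) of all genes. The 0 h split rests on about 1 score UMI a cell and cannot rank cells as finely. When the 8 h score UMIs were thinned to their 0 h level, an alternative chosen after seeing the data, 59 genes were higher and 262 lower, and 123 of the 126 and all 312 kept their sign. Without G0S2 in the score 119 genes were higher and 133 lower, and all 126 and 310 of the 312 kept their sign. Without TGFA the numbers were 82 and 292, and without RGS10 they were 126 and 202.

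**Figure D3:**
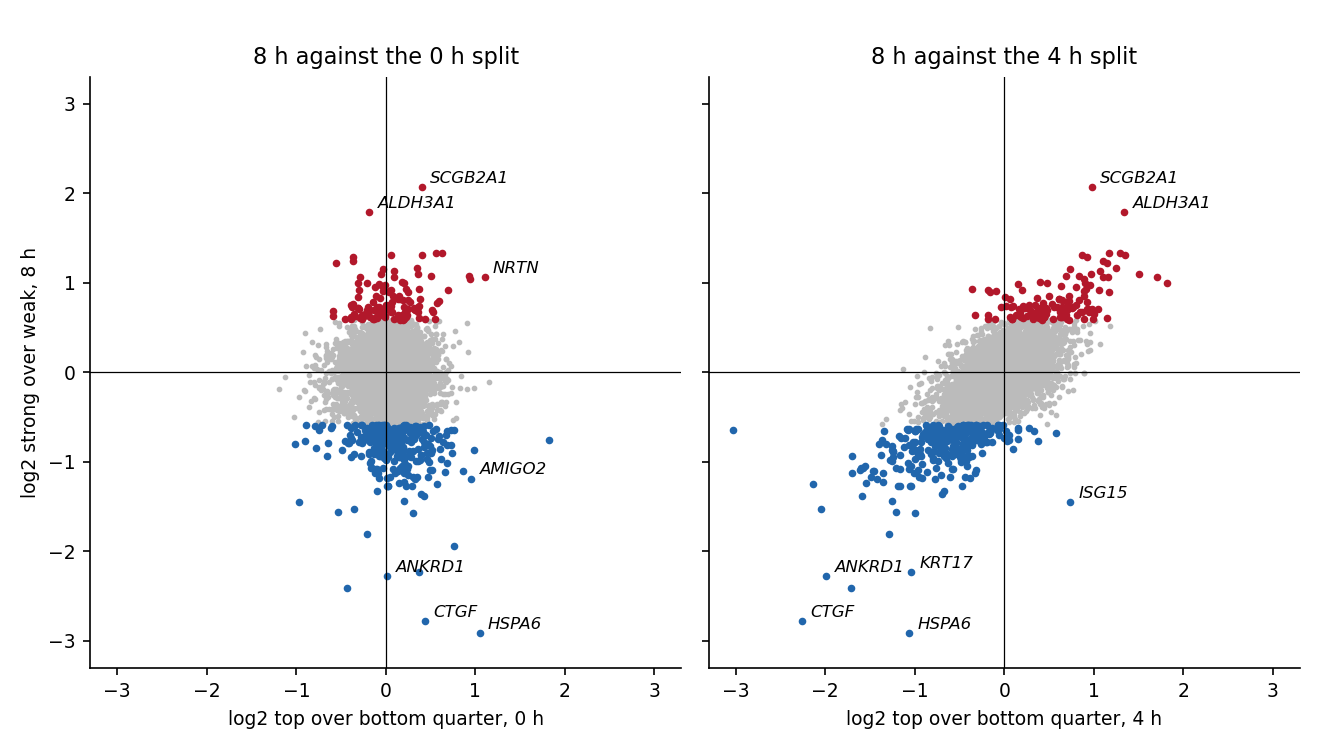
Each point is 1 of 8082 genes. The y axes give log2 strong over weak at 8 h, the x axes the same split at 0 h (left) and 4 h (right). Red points are the 126 genes at least 1.5-fold higher in strong cells at 8 h and blue points the 312 lower ones. On the left both colours straddle 0, and on the right most red points lie above 0 and most blue points below 0.

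The gene with the largest excess in strong cells was SCGB2A1, which encodes a secretoglobin released by glandular epithelium. It measured 22.2, 27.5, 41.8 and 96.3 CPM from Q1 to Q4, against 30.0 CPM in all 0 h cells. Its log2 ratio was 2.07, against 0.40 in the untreated split, 1.86 after 2 h and 0.98 after 4 h. The rise was concentrated in the strong cells, while Q1 and Q2 lay near the untreated level. A UMI was found in 36.8% of strong and 19.6% of weak cells. In each pool 5 cells held much of the total, 30.1% in strong and 40.1% in weak cells. Without the 5 highest cells of each pool the log2 ratio of SCGB2A1 was 2.25. Its neighbour in function SCGB1D2 was at 10.8 CPM in weak and 21.4 CPM in strong cells, a log2 ratio of 0.92.

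ALDH3A1, an aldehyde dehydrogenase, was lower over all 8 h cells than over all 0 h cells. It was at 87.2 CPM in untreated cells, and at 8 h at 28.0, 48.3, 54.3 and 99.5 CPM from Q1 to Q4 (log2 1.79). It was thus below the untreated level in weak cells and not in strong ones. Of its UMIs, 5 cells held 38.5% in weak and 25.3% in strong cells. Without the 5 highest cells of each pool its log2 ratio was 2.04. GJA1, which encodes the gap junction protein connexin 43, lay on both sides of its untreated 52.6 CPM, with 33.5 CPM in weak and 83.4 CPM in strong cells (log2 1.29, and −0.36 in the 0 h split).

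AGPAT2, an enzyme of phospholipid and triglyceride synthesis, had 49.5 CPM in weak and 126 CPM in strong cells, against 47.02 CPM at 0 h. SLC16A3, a lactate transporter, had 17.1 and 44.6 CPM against 17.1 CPM. HES2, a transcription repressor, had 33.2 and 83.9 CPM against 21.1 CPM. For AGPAT2 and SLC16A3 the weak cells were close to the untreated culture and the strong cells well above it. NPAS3, a transcription factor, was at 20.9 CPM in weak and 53.2 CPM in strong cells. SLC34A2, a phosphate transporter, was at 23.3 and 49.6 CPM. CKB, a creatine kinase, differed by 1.07 on the log2 scale at 8 h and by 0.93 in the untreated split, so its excess was already present without E2. The same held for NRTN, a ligand of the GDNF family, with 33.5 and 70.9 CPM at 8 h (log2 1.06) and 9.10 and 20.7 CPM at 0 h (log2 1.10). CCDC146 (1.06) and COL9A3, a cartilage collagen chain (1.01), completed the 12 highest genes of at least 20 CPM.

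The receptor gene itself was higher in strong cells. ESR1 measured 26.8, 31.9, 42.2 and 46.8 CPM from Q1 to Q4 at 8 h, against 46.7 CPM in all untreated cells. The ratio of strong over weak was 1.75 (interval 1.46 to 2.09). In the 0 h split it was 0.91 (0.74 to 1.11), and on the log2 scale it was 0.97 after 2 h and 0.70 after 4 h. At 2 h the levels were 32.6 CPM at the bottom and 64.6 CPM at the top of the score, and at 4 h 26.5 and 43.7 CPM. The bottom group was thus below the untreated level in each of the 3 treated cultures. PGR rested on few UMIs, 20 in weak and 48 in strong cells (2.74 and 6.42 CPM, ratio 2.35, interval 1.37 to 4.18), and GREB1, an estrogen-induced cofactor of the receptor, on 21 and 40 UMIs (ratio 1.86, 1.07 to 3.33).

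Over all genes compared, 1.56% were past 1.5-fold higher in strong cells at 8 h and 3.86% lower. Of 19 compared genes for ESR1 and its coregulators, 3 were past 1.5-fold higher and none lower. Among the 3 was also NRIP1, a corepressor that E2 induces (34.5 and 60.2 CPM). Of 4 compared endometrial gland markers, all 4 were above 0 and 2 past 1.5-fold. SOX17, a transcription factor of the gland, was at 40.1 and 72.9 CPM, and EMX2, a factor of uterine development, at 78.9 and 127 CPM. The median of the 4 was 0.52 at 8 h and −0.21 at 0 h.

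**Figure D4:**
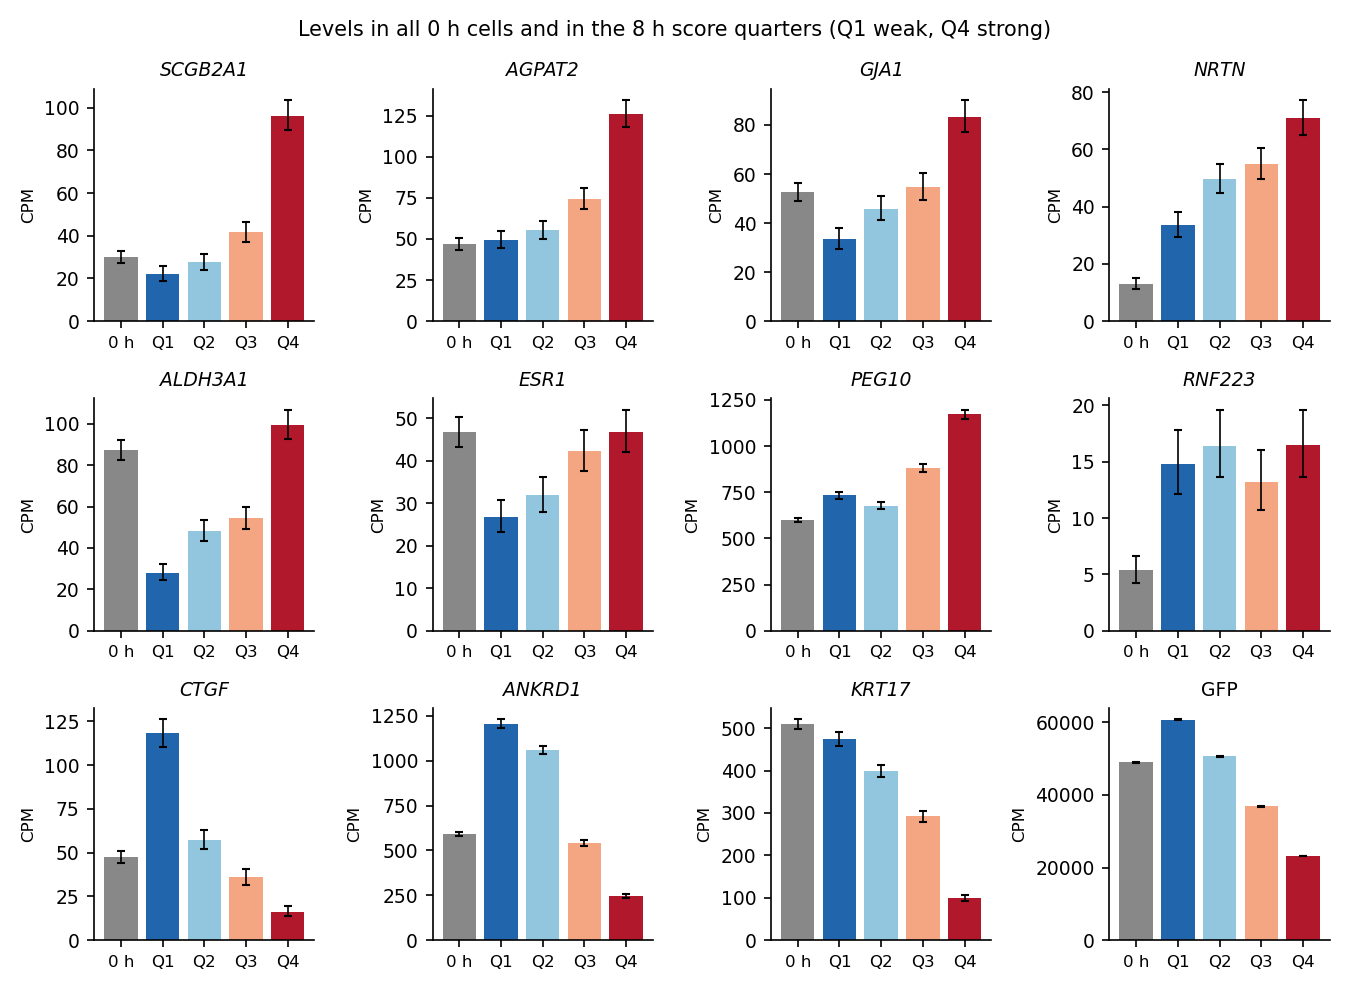
Level (y axes, CPM) of 11 genes and GFP in all 0 h cells and in the 4 score groups at 8 h, Q1 being the weak and Q4 the strong cells. Bars are pooled levels and lines 95% Poisson intervals. SCGB2A1 stands out in Q4, ESR1 and ALDH3A1 climb back to the 0 h level, RNF223 is level across the 8 h groups, and CTGF, ANKRD1, KRT17 and GFP decline from Q1 to Q4.

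CTGF and ANKRD1 were among the genes lowest in strong cells. CTGF, a matricellular protein and the standard YAP target, measured 118, 57.4, 35.9 and 16.3 CPM from Q1 to Q4 (864, 430, 267 and 122 UMIs), against 47.4 CPM in untreated cells. Its ratio was 0.138 (interval 0.113 to 0.167). ANKRD1, a muscle ankyrin repeat protein and another YAP target, measured 1207, 1059, 542 and 247.6 CPM against 591 CPM. Both were above the untreated level in weak cells and below it in strong cells, so the 8 h average of all cells (56.6 CPM for CTGF, 762 CPM for ANKRD1) hid opposite departures. In the 0 h split ANKRD1 differed by 0.01 and CTGF by 0.44 on the log2 scale.

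The upstream 250 bases of both genes are shown because they hold copies of GGAATG, a motif bound by TEAD factors, given in capitals. They are from the RefSeq promoter table (GRCh38.p14), read 5′ to 3′ on the minus strand, at chr6:131951373-131951622 for CTGF (RefSeq symbol CCN2) and chr10:90921088-90921337 for ANKRD1. The G0S2 bases (chr1:209675162-209675411, plus strand) are shown because that gene varied most among the 5 of the score, with the estrogen response half-site GGTCA in capitals, which lies there on the opposite strand as TGACC.
CTGF: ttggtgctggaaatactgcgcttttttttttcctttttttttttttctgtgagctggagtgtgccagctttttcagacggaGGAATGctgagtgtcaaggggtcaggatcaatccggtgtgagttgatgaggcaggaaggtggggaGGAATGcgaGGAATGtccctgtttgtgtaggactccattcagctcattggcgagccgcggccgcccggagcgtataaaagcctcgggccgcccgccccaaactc
ANKRD1: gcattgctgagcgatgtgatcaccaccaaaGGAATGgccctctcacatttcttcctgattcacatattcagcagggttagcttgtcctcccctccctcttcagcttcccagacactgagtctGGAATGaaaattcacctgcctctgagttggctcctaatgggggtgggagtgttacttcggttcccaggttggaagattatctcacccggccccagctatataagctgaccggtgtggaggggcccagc
G0S2: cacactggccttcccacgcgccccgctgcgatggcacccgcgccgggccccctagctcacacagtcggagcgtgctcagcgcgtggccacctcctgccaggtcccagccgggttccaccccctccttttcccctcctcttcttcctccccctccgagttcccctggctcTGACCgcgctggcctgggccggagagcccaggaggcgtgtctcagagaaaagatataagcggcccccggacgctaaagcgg

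CTGF holds 3 copies of GGAATG and ANKRD1 holds 2. Both also hold the half-site GGTCA, not given in capitals, which lies in ANKRD1 on the opposite strand as TGACC. Searched on both strands over the same 250 bases, GGAATG was in 11.9% of 35116 promoters in the table and GGTCA in 32.6%, and no match of one can lie wholly inside the other. TGANTCA, a motif of the AP-1 type, was in 6.57%, and is also among the ANKRD1 bases, not in capitals. GGAATG was in 38 of the 377 promoters of the 243 lower genes that matched the table (10.1%), and in 9.86% of the 9724 promoters of all matched genes. GGTCA was in 27.9% of the promoters of the higher genes, 31.8% of those of the lower genes and 29.9% of those of all matched genes. TGANTCA was in 28 promoters of the lower genes (7.43%), in 4.85% of those of the higher genes and in 4.03% of those of all matched genes. These shares are descriptions without a test.

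Of 14 compared YAP targets, 7 were at least 1.5-fold lower in strong cells and none higher, where 3.86% of all genes were lower, with a median of −0.44 against −0.01 over all genes. Besides CTGF and ANKRD1 these were CYR61, another matricellular protein (762 and 334 CPM), TGFB2, a ligand of the TGF-β family (41.6 and 19.9 CPM), MYOF (67.3 and 38.7 CPM), CRIM1 (21.5 and 12.6 CPM) and LATS2, a kinase that restrains YAP (24.2 and 15.8 CPM). AMOTL1, AMOTL2, FJX1 and RBMS3 were above 0 and under 1.5-fold. The 20 listed genes summed to 2516 CPM in weak and 957 CPM in strong cells at 8 h. Most of that difference lay in ANKRD1 and CYR61. In the 0 h split the 20 genes summed to 1532 and 1691 CPM, none was past 1.5-fold, and the median was 0.03. After 2 h of E2 the median was −0.67, and after 4 h −0.60.

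Other genes among the lowest in strong cells were KRT17 and KRTAP2-3. KRT17, a keratin of stressed and basal epithelium, measured 474, 398, 292 and 99.8 CPM from Q1 to Q4. KRTAP2-3, a keratin-associated protein, measured 401, 301, 164 and 74.9 CPM. Both declined in order from Q1 to Q4, while in the 0 h split their log2 ratios were 0.37 and −0.43. CNN1, a calponin that binds actin, was at 64.6 and 17.7 CPM in weak and strong cells. NEXN, another actin-binding protein, was at 49.2 and 17.5 CPM, PHLDB2, which anchors microtubules at adhesions, at 46.2 and 14.9 CPM, and CLDN1, a tight junction protein, at 32.4 and 12.8 CPM. SFN, an epithelial 14-3-3 protein, was at 55.8 and 22.5 CPM, and ANKRD37 at 28.9 and 10.4 CPM. Of 19 compared keratin and junction genes, 3 were past 1.5-fold lower (KRT17, CLDN1 and KRT80) and none higher, against 3.86% lower over all genes. The median of the 19 was −0.06 and 7 were above 0. KRT8, KRT18 and KRT19 differed by at most 0.07.

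GFP was higher in the same pools as these genes, but not all of them were higher in the cells with more GFP. Over all 8 h cells, CTGF was at 78.7 CPM with at least 1% GFP and 45.2 CPM under it. CNN1 was at 27.5 and 39.4 CPM. With the split made within 10 bins of GFP share, chosen after seeing the data, 123 genes were higher in strong cells and 200 lower. In cells under 1% GFP the log2 ratios were −2.45 for CTGF, −2.99 for ANKRD1, −2.31 for KRT17, −2.29 for KRTAP2-3 and −1.61 for CNN1, and the median of the YAP targets was −0.37. ANKRD1 was thus further apart than in all cells and CTGF somewhat less. NEXN came to −0.996 from −1.44 and SFN to −0.60 from −1.27, a smaller difference than in all cells. HSPA6, a stress-inducible heat shock protein, had the lowest ratio of all, −2.92, but 5 cells held 89.0% of its 181 UMIs in weak cells. In cells under 1% GFP it was 0.18. ISG15, an interferon-induced ubiquitin-like protein, was at 87.8 CPM in weak and 31.6 CPM in strong cells (log2 −1.45), with 70.3% of the weak UMIs in 5 cells. Without the 5 highest cells of each pool its log2 ratio was −0.78, and in the 4 h split it was 0.73. The HSPA6 and ISG15 values thus describe a few cells. For CTGF and ANKRD1 the ratio without the 5 highest cells of each pool was −2.73 and −2.67.

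Immediate-early genes are those that growth factors and stress induce within minutes. Of 15 compared, 7 were past 1.5-fold lower in strong cells and none higher, against 3.86% lower over all genes. The median was −0.34, and 0.08 at 0 h. The 7 lower genes were DUSP1, which switches off MAP kinases (14.2 and 4.28 CPM), CYR61, ATF3 (76.2 and 35.5 CPM), IER2 (148 and 79.7 CPM), JUN (150 and 90.3 CPM), FOSL2 (12.6 and 7.63 CPM) and IER3. The other 8 did not pass, among them MYC (0.29) and EGR1 (−0.10). Of 10 genes of MAPK feedback, 3 were lower (DUSP1, DUSP5 and IER3) and none higher. The lists overlap, since DUSP1 and IER3 are counted as immediate-early genes too, and CYR61 also as a YAP target. DUSP6, the feedback phosphatase of ERK, was at 19.3 and 26.1 CPM (log2 0.42). In cells under 1% GFP it was past 1.5-fold higher, at 0.67.

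TGFA, a score gene, is a ligand of the EGF receptor, so the EGF family bears on the same pathway. None of the 11 compared members was above 0 in strong cells, and NRG1, a ligand of ERBB3 and ERBB4 (16.8 and 8.29 CPM), and ERRFI1, an inhibitor of the receptor (23.5 and 13.0 CPM), were past 1.5-fold lower. NRG1 was under 1.5-fold in cells under 1% GFP, at −0.50 against −0.94 in all cells. The median of the 11 was −0.21. Over all genes compared, 1.56% were past 1.5-fold higher and 3.86% lower. EGFR was at 24.9 and 19.1 CPM and ERBB2 at 14.8 and 14.6 CPM. The other pathways of the score genes differed little. Among retinoid genes RXRA was past 1.5-fold higher (0.49 in cells under 1% GFP) and RDH10 lower of 13, among lipid storage genes PNPLA2, which encodes ATGL, was lower of 12, and among RGS and G protein genes RGS20 was lower of 11.

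Dividing cells were fewer or carried less mitotic RNA among the strong, which pooled levels cannot tell apart. Of 50 G2/M genes, 10 were past 1.5-fold lower and none higher, against 3.86% lower over all genes. Their median was −0.31. ANLN, a scaffold of the cleavage furrow, was at 74.7 and 36.4 CPM. TOP2A measured 139, 127, 114 and 102 CPM from Q1 to Q4, and MKI67, a proliferation marker, 174, 176, 162 and 130 CPM. A TOP2A UMI was found in 52.0% of weak and 42.2% of strong cells. For MKI67 the shares were 62.1% and 54.8%, and for ANLN 54.2% and 33.5%. Fewer strong cells thus held a UMI, but such a share can also fall with less RNA per cell. The lower G2/M level was present without E2, since the G2/M median in the 0 h split was −0.44. There 16 of these genes were past 1.5-fold lower, against 1.19% of all genes. S phase genes differed little (median −0.09, 1 higher and 1 lower of 40). Of 17 G1 cyclins and CDK inhibitors, 4 were lower (CDK6, CDKN1A, CDKN2B and CDKN2C) and CDKN1C was higher, 16.1 against 10.3 CPM, with 43.3% of its strong UMIs in 1 cell. In cells under 1% GFP the log2 ratio of CDKN1C was −0.46, against 0.60 in all cells.

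Among stress lists, 5 of 18 heat shock genes (HSPA6, HSPA1B, DNAJB4, HSPB1 and CRYAB) and 4 of 19 genes of the integrated stress response (PPP1R15A, SESN2, DDIT3 and TRIB3) were lower and none was higher. Their medians were −0.08 and −0.18. Over all genes compared, 3.86% were past 1.5-fold lower and 1.56% higher. The sums of the heat shock genes, 12304 CPM in weak and 12246 CPM in strong cells, were close. Of 16 p53 targets, GDF15, CDKN1A and GADD45A were lower and FDXR higher. In cells under 1% GFP neither GDF15 (−0.033) nor FDXR (0.11) was past 1.5-fold, and 5 cells held 44.6% of the weak GDF15 UMIs. No gene was past 1.5-fold among 36 ribosomal proteins, 13 mitochondrial transcripts, 32 nuclear genes of the respiratory chain, 22 of cholesterol synthesis and 5 metallothioneins. ANKRD37 was the only gene past it of 19 for hypoxia and glycolysis, ISG15 of 6 interferon genes, and IER3 of 5 NF-kB targets.

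The wider E2 response was then read across the split. Over all kept cells, 58 other genes were at least 1.5-fold higher at 8 h than at 0 h (0.718% of those compared) and 48 lower (0.594%). Of the 58 raised genes, 49 were above 0 in strong over weak cells and 24 past 1.5-fold, against 1.56% of all genes. Their median was 0.50 (interval over genes 0.43 to 0.64), against 0.18 in the 0 h split and −0.01 over all genes at 8 h. Of the 48 lowered genes, 20 were past 1.5-fold lower in strong cells, against 3.86% of all genes, and 2 higher (CDKN1C and ALDH3A1). The median of the 48 was −0.35, against 0.12 in the 0 h split. The 8 h average that chose both lists includes the strong cells, so a gene that differed mainly there could enter. Over all 0 h cells, SCGB2A1 had a log2 of −0.42 in Q1 and 1.65 in Q4, and KRT17 −0.10 and −2.34. These counts and medians can thus follow in part from the choice of genes.

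Weak cells also lay above the untreated culture for most of the raised genes. Set against all untreated cells, the 58 raised genes had a median log2 of 0.54 in Q1, 0.69 in Q2, 0.81 in Q3 and 1.05 in Q4. In the weak cells 56 of them were above the untreated level and 26 past 1.5-fold, and in the strong cells 58 and 57. The lowered genes had medians of −0.65, −0.67, −0.76 and −0.98. All 4 groups were set against the same 0 h cells, and these cells and the 4 groups all enter the choice of the genes. The values thus describe the chosen genes and not a size, and part of their order can follow from the choice.

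**Figure D5:**
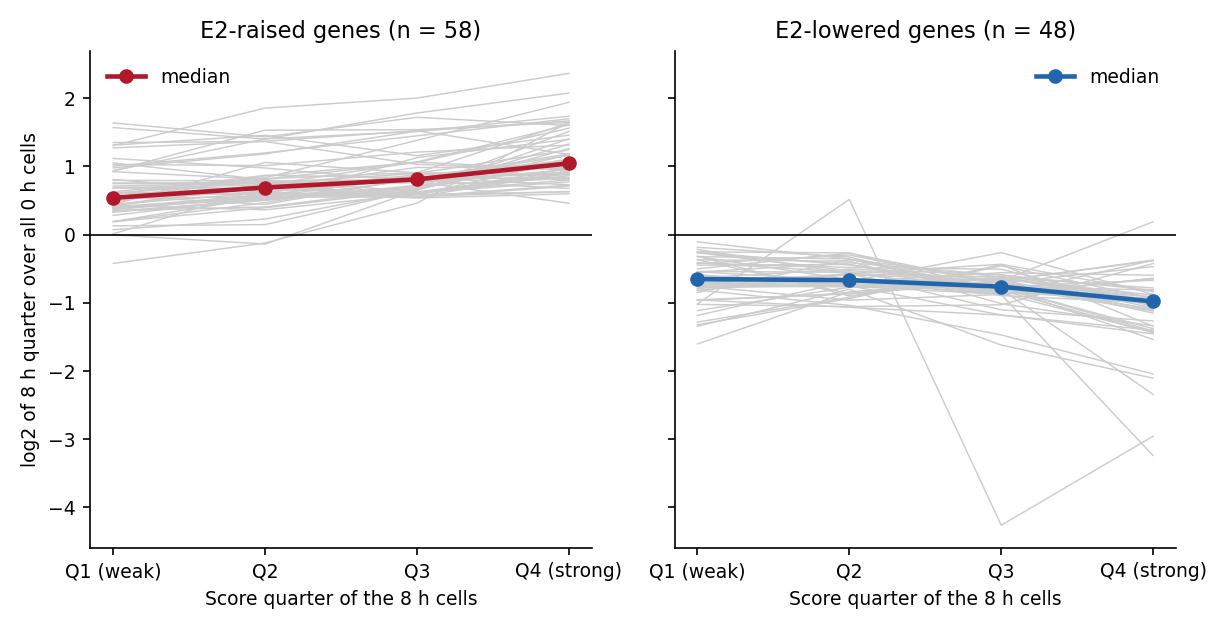
Log2 level of each E2-raised (left, 58) and E2-lowered gene (right, 48) in the 4 score groups of the 8 h cells over all 0 h cells. Grey lines are single genes and coloured points medians, which run from 0.54 to 1.05 and from −0.65 to −0.98.

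Some raised genes did not follow the score. RNF223 measured 5.35 CPM in untreated cells and 14.8, 16.4, 13.2 and 16.5 CPM from Q1 to Q4. In cells under 1% GFP its log2 ratio was −0.36. EGR1, an immediate-early factor, was at 36.5 CPM in weak and 34.1 CPM in strong cells against 14.5 CPM in untreated cells. FHL2, a LIM-domain cofactor, was raised by E2 from 23.0 CPM and was lower in strong (32.0 CPM) than in weak cells (51.0 CPM). KCNK15, a potassium channel, did lean with the score, though under 1.5-fold (log2 0.51). It was at 17.2 CPM in weak and 24.9 CPM in strong cells against 5.14 CPM in untreated cells. PEG10, a retrotransposon-derived gene, was also higher in strong cells in both splits, at 733, 677, 880 and 1173 CPM from Q1 to Q4 (log2 0.68, and 0.52 in the 0 h split).

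Of 21 compared estrogen targets listed from general knowledge, 3 were past 1.5-fold higher in strong cells (NRTN, PEG10 and NRIP1) and 5 lower (SGK1, CITED2, STC2, FHL2 and BCL2), with a median of 0.23. Over all genes compared, 1.56% were past 1.5-fold higher and 3.86% lower. SGK1, a kinase of ion transport, was at 15.7 and 6.42 CPM. Among 14 secretory gland products, SCGB2A1, SCGB1D2 and MUC16 were higher and CLU and PRSS8 lower. CLU, a secreted chaperone, was at 68.3 and 30.8 CPM.

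Among the genes whose ratios differed most between the 8 h and the 0 h split were TCAF1, a channel-associated factor, and AMIGO2, a cell adhesion protein. TCAF1 was at 31.1 and 43.6 CPM at 8 h (log2 0.48) and at 42.9 and 25.4 CPM at 0 h (−0.74). AMIGO2 was at 55.3 and 23.7 CPM at 8 h (−1.19) and at 41.5 and 81.3 CPM at 0 h (0.95). Each thus stood on opposite sides in treated and untreated cells.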

How the data were processed

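Single-cell RNA sequencing of Ishikawa cells was analysed from UMI counts per gene and barcode, which the authors made with Cell Ranger 3.1.0. The submitters' processing notes name hg38. Time points were the deposited calls of the demultiplex R package; barcodes called doublets (1906) or without a call (4002) were left out, and 8 called barcodes absent from the matrix could not be used. Doublets within a time point carry 1 tag and were not removed; no further doublet caller was run.

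UMIs were summed over the cells of a score group and scaled to CPM, leaving GFP and tdTomato out of totals (7310604 weak and 7474429 strong UMIs). Ties at a limit were included. Intervals are exact Poisson for CPM, exact conditional for ratios without the pseudocount, exact Clopper-Pearson for shares, and order statistics for medians. The named genes were the 5 score genes; ESR1, PGR, GREB1, PEG10, KCNK15, NRTN, RNF223, IER3, TOP2A, MKI67 and GFP; the 12 highest and 12 lowest at 8 h with at least 20 CPM; the 6 largest differences each way between the 8 h and 0 h ratios; and each list's extremes. Some genes in these sets are not reported here. List members past 1.5-fold and E2-raised genes that did not follow the score were named after their values were seen. The members, the score genes and the 31 lists were chosen with earlier results of these data known. Alternatives changed the depth, split, score, scaling (TMM, edgeR 4.0.16), filters and reporters. The functions were tested on simulated data. Python 3.11.15 (numpy 2.4.6, scipy 1.17.1) was used.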

Additional observations from a re-analysis of the deposited data

Results flagged for a closer look

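Among the named genes, 3 were past 1.5-fold in opposite directions at 8 h and in the untreated split, with counting intervals on opposite sides of 1. The difference was not tested, since each time point was 1 culture. IER3, an early response gene that E2 lowered from 25.2 to 8.98 CPM, had a log2 ratio of −0.76 at 8 h and 1.82 at 0 h, where the top 25% of cells held 52.5 CPM and the bottom group 14.2 CPM. In that top group 1 cell held 41.1% and 5 cells 68.3% of the IER3 UMIs, and without the 5 highest cells of each pool the 0 h levels were 17.1 and 6.05 CPM (log2 1.36). At 8 h 5 cells held 71.1% of the strong IER3 UMIs. HSPA6 had −2.92 at 8 h and 1.05 at 0 h, and both values rested on a few cells. At 0 h 5 cells held 90.3% of its UMIs in the top and 75.6% in the bottom group, and without the 5 highest cells of each pool the log2 ratio was −0.22 at 0 h and −0.95 at 8 h, so the directions were no longer opposite. The counting intervals do not cover such unequal cells. AMIGO2 had −1.19 at 8 h and 0.95 at 0 h.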

How the results depend on the processing

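No paired analysis was possible because each time point was 1 culture. The median of the held-out score genes was above 0 at both times in all settings tried, but its order turned with the top and bottom 10% of cells (0.49 at 8 h, 0.78 at 0 h) and in thinned cells (0.36 and 0.40), and the 8 h value fell to 0.39 with every called cell. The median of the E2-raised genes at 8 h was 0.42 without TGFA in the score, 0.41 with every called cell and 0.31 with score UMIs thinned to the 0 h level; at 0 h it was 0.32 with 10%. The 8 h counts (126 higher, 312 lower) became 297 and 924 with 10%, 446 and 686 without TOP2A or MKI67 UMIs, 75 and 202 with a pseudocount of 5 CPM, 673 and 1133 with no minimum CPM, 22 and 71 at 50 CPM, 595 and 960 at the lower fold tried, and 21 and 57 at 2-fold. Higher genes numbered 82 without TGFA, 218 with the reporters in the totals, 77 with every called cell and 59 with thinned score UMIs. Lower genes numbered 189 with equal weights, 133 without G0S2, 202 without RGS10 and 200 when split within 10 GFP bins. The 0 h counts (83 and 96) became 203 and 354 with 10%, 44 and 54 without RGS10, 30 and 45 with 5 CPM, 245 and 156 under 1% GFP, 434 and 488 without TOP2A or MKI67 UMIs, 16 and 21 with every called cell, 1045 and 907 with no minimum, 2 and 10 at 50 CPM, 604 and 469 at the lower fold, and 4 and 4 at 2-fold; lower genes were 46 in thinned cells and higher genes 42 without FAM43A. Smaller pools, as with 10%, scatter more; other causes were not tested. TMM moved the 8 h counts to 148 and 284 and the 0 h counts to 62 and 112.

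Of 46 named genes past 1.5-fold at 8 h, 43 kept their direction in all 19 settings and 27 stayed past 1.5-fold. CDKN1C reversed to −0.27 with 10%, −0.90 without DHRS3, −0.46 under 1% GFP, −0.017 within GFP bins and −0.93 with thinned score UMIs. HSPA6 reversed to 0.18 under 1% GFP and GDF15 to 0.011 without G0S2. The medians of G2/M genes (0.093 without TOP2A or MKI67 UMIs), p53 targets (0.021 without G0S2) and nuclear respiratory chain genes (−0.00202 under 1% GFP) also changed sign. The split within GFP bins and the thinned score UMIs were chosen after seeing the data.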
